A study of Mus musculus with 29 samples.

Results

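The genes described here are 9 channel and exchanger genes of photoreceptors and bipolar cells, taken by their symbols from the 24062 rows of the RNA table, and the 75 of 110715 open-chromatin regions whose nearest transcription start site (TSS) was that of one of them. They are the subunits of the cyclic nucleotide-gated (CNG) channels of rods (Cnga1, Cngb1) and cones (Cnga3, Cngb3), the sodium/calcium, potassium exchangers Slc24a1 and Slc24a2, and 3 hyperpolarization-activated channels (Hcn2, Hcn3, Hcn4). All 9 passed the filter on low counts that left 14024 genes to test. No other curated RefSeq gene overlaps any of them.

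CNG channels carry the light-sensitive current of the photoreceptor outer segment. They are held open in darkness by cGMP and close when light activates the phosphodiesterase that breaks cGMP down. An A subunit can form a channel by itself, whereas a B subunit cannot and modifies the channel that A subunits make. The calcium that enters through them is carried out by exchangers of the SLC24 family, among them SLC24A1 in rods and SLC24A2 in cones. HCN channels open when a cell becomes more negative and pull its voltage back, which shapes light responses in photoreceptors and in some bipolar cells.

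RNA-seq was available for 5 populations of sorted cells from mouse retina with 3 libraries each, and ATAC-seq, which reads open chromatin by transposase insertion, for 6 populations with 2 libraries each. Every bipolar library came from mice heterozygous for a GFP cassette knocked into Otx2 (Otx2-GFP+/-), so 1 copy of Otx2 was altered in all of them. Pan-BCs, the whole bipolar class, were single-sorted from Otx2-GFP+/- mice for RNA, while the labels of their ATAC libraries add Grm6-YFP+/+. ON-BCs and OFF-BCs came from Otx2-GFP+/-; Grm6-YFP+/+ mice, in which the Grm6 promoter drives YFP in ON bipolar cells, and OFF-BCs alone were sorted a second time. Cells with low YFP between the sort gates entered neither population. Each pan-BC RNA library came from 1 mouse, and each ON-BC and OFF-BC RNA library pooled 2. The bipolar mice were 42 to 48 days old. Rods (Nrl-eGFP), blue cones (Nrl-eGFP;NrlKO) and green cones (Opn1mw-GFP, ATAC only) were 56 days old and were profiled by the same group in earlier work, and cell class therefore cannot be told apart from experiment and age. The blue cones are photoreceptors of mice without Nrl, the rod-specifying factor, and stand in for cones that express Opn1sw. A bulk level cannot separate fewer expressing cells from less RNA in each.

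RNA libraries held 12329548 to 26266746 counted reads and ATAC libraries 4176776 to 12345845. Values are normalized counts, that is reads divided by a size factor for each library, and differences are on the log2(normalized count + 1) scale. Comparisons share libraries (pan-BCs, rods and blue cones each enter several), so they are not independent. The 6 ON bipolar markers summed to 138477 to 154014 in ON-BCs and to 15677 to 24274 in OFF-BCs, and the 3 OFF bipolar markers to 425.8 to 642.8 and 43490 to 66169. The 5 Müller glia markers summed to 852.3 to 1197 in ON-BCs and 2439 to 3252 in OFF-BCs, and the 4 amacrine markers to 215.5 to 314.5 and 720.9 to 897.5. These higher OFF-BC sums came mostly from Sox9 (means 25.1 in ON-BCs and 1400.0 in OFF-BCs) and Slc6a9 (158.9 and 566.3, against 2271 in rods). Glul (728.4 and 1107), Slc1a3 (50.6 and 210.2), Tfap2b (54.5 and 211.7) and Tfap2a (4.73 and 8.86) also had higher means in OFF-BCs. Rlbp1, Aqp4 and Gad1 had lower means in OFF-BCs than in ON-BCs. Rod and cone markers were not at 0 in the bipolar libraries. The 5 rod markers (Gnat1, Pde6a, Pde6b, Nrl, Nr2e3) stood at 0.397% to 1.02% of their rod mean in pan-BCs, 0.325% to 0.865% in ON-BCs and 0.0485% to 0.145% in OFF-BCs. The 6 cone markers stood at 0.259% to 5.6% of their blue cone mean in pan-BCs, 0.0354% to 2.01% in ON-BCs and 0.505% to 10.5% in OFF-BCs. OFF-BC replicate 3 had the most cone RNA of the OFF-BC libraries, with Opn1sw at 4.57% of the blue cone mean against 0.366% and 0.353% in the other two.

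**Figure D1:**
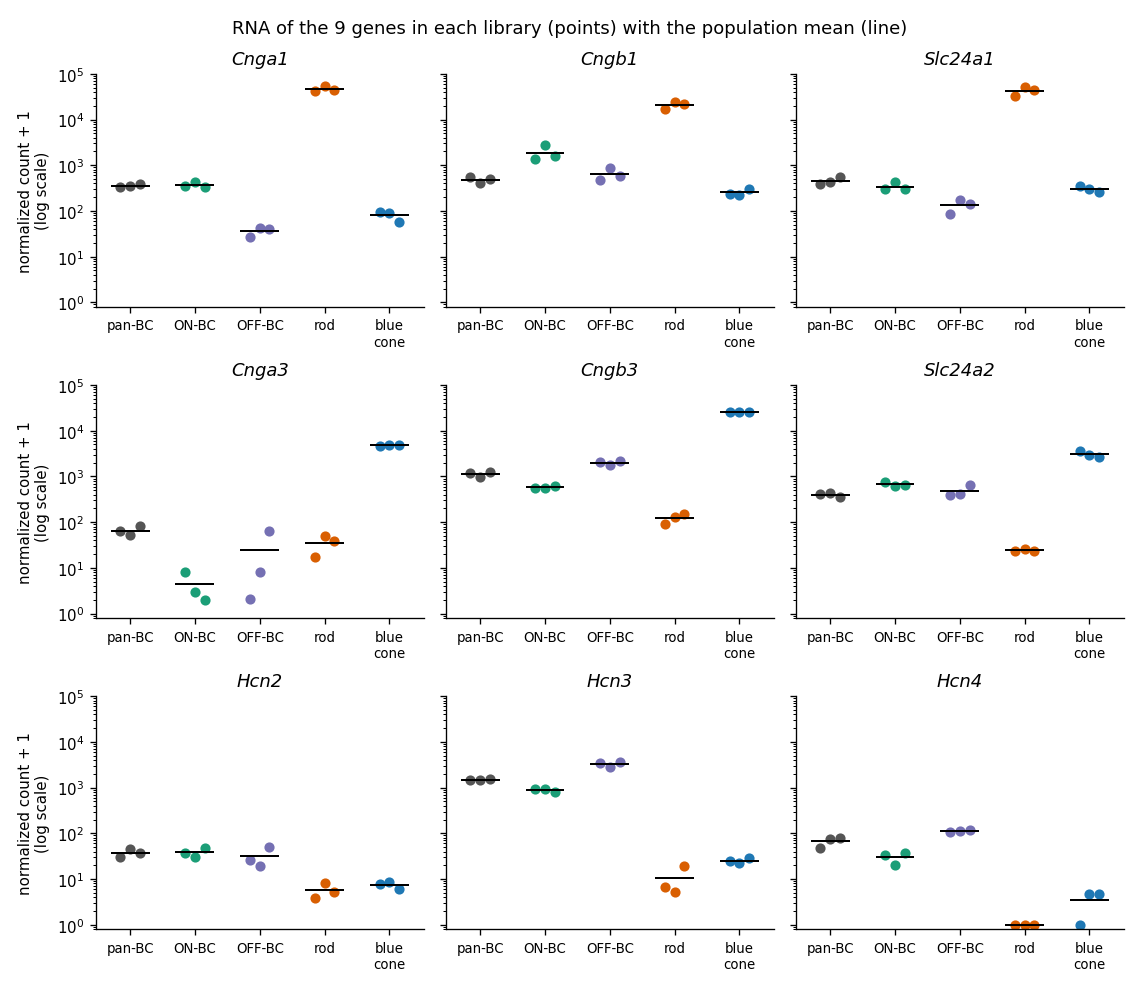
Normalized RNA count plus 1 (log axis) of each gene in the 15 libraries, by population; points are libraries and lines are means of 3. The rod genes Cnga1, Cngb1 and Slc24a1 peak in rods, Cnga3, Cngb3 and Slc24a2 in blue cones, and Hcn3 and Hcn4 in OFF-BCs, with Hcn4 at 0 reads in every rod library.

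A difference was called when limma's test against a 2-fold change (a log2 fold change of 1) gave an adjusted p under 0.05 after Benjamini-Hochberg adjustment over all genes. Between ON-BCs and OFF-BCs 1 of the 9 genes was higher in ON-BCs and 1 was lower, where 2.95% and 3.6% of all genes were. Between pan-BCs and rods 5 were higher in pan-BCs and 3 lower (all genes, 27.8% and 15.8%). Against blue cones 4 were higher in pan-BCs and 3 lower (22.7% and 13.7%), and between rods and blue cones 3 were higher in rods and 3 lower (4.63% and 11.3%). The median absolute log2 difference of the 9 genes was 1.54 between ON-BCs and OFF-BCs, 5.43 between pan-BCs and rods, 2.95 between pan-BCs and blue cones and 7.0 between rods and blue cones, against 0.32, 1.27, 1.08 and 0.64 over all genes tested. Populations next to each other in a gene's order were compared with a test against no change at all. That test called 6.08% of all genes between pan-BCs and ON-BCs, 20.8% between pan-BCs and OFF-BCs and 27.0% between ON-BCs and OFF-BCs. It called 79.5%, 78.4% and 79.3% between rods and pan-BCs, ON-BCs and OFF-BCs in turn, 76.3%, 75.6% and 75.4% between blue cones and the same 3, and 57.5% between rods and blue cones.

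**Figure D2:**
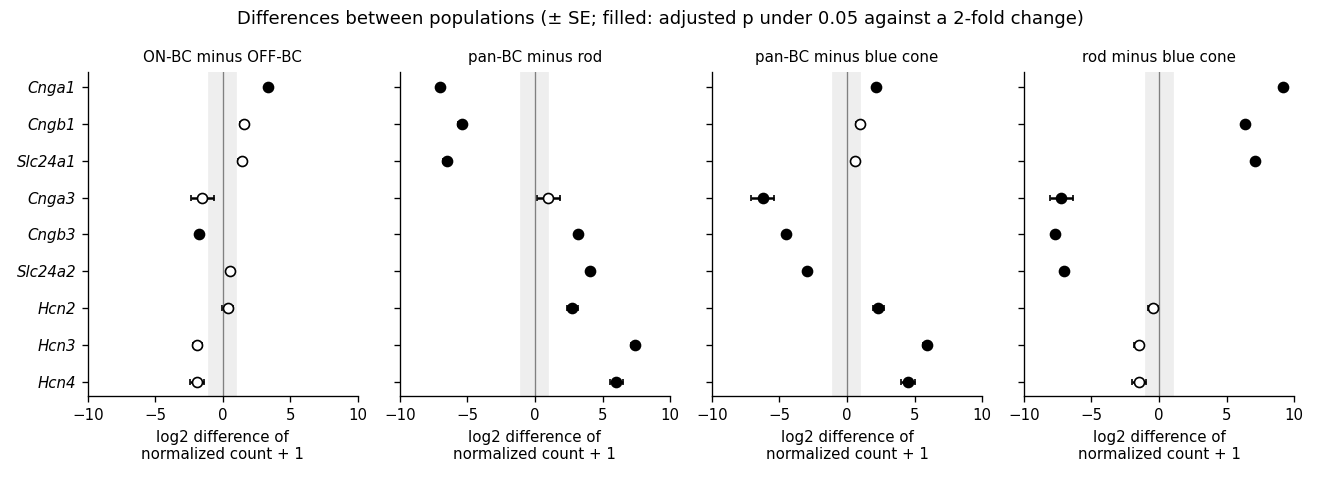
Log2 difference of normalized RNA count plus 1 for the 9 genes (rows) in 4 comparisons (panels), with the SE as bars; filled points passed the test against a 2-fold change and the grey band spans a 2-fold change either way. Rod and cone genes lie on opposite sides in the rod minus blue cone panel, from 9.19 for Cnga1 to -7.73 for Cngb3, while the 3 Hcn genes there did not pass.

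Cnga1, the A subunit of the rod channel (chr5:72603696-72642752, minus strand, GRCm38), had 41298, 54715 and 43433 normalized counts in the rod libraries. Pan-BCs held 333, 347 and 390, ON-BCs 347, 421 and 327, OFF-BCs 25.7, 40.9 and 38.6, and blue cones 93.3, 91.1 and 55.5. Rods thus lay far above all others, pan-BCs and ON-BCs overlapped, and OFF-BCs were the lowest. Cnga1 was 581-fold higher in rods than in blue cones (log2 difference 9.19 ± 0.20 SE, adjusted p = 4.78e-15), and 10.4-fold higher in ON-BCs than in OFF-BCs (3.36 ± 0.20, adjusted p = 2.87e-07). It was 4.46-fold higher in pan-BCs than in blue cones (2.18 ± 0.20, adjusted p = 7.03e-05). Pan-BCs and ON-BCs did not pass the neighbour test (adjusted p = 0.974), and the other neighbours in its order did. Its level in ON-BCs was 0.785% of the rod mean and in OFF-BCs 0.0754%, inside the range of the rod markers in both. The share of rod RNA in the ON-BC against OFF-BC difference was not tested. The study's own rule for carried-over photoreceptor RNA drops an ON-BC or OFF-BC gene that is over 16-fold higher in rods or blue cones. Cnga1, 127-fold higher in rods than in ON-BCs, would be dropped by it, and so would its pan-BC against blue cone difference, since rods lay 581-fold above blue cones and 130-fold above pan-BCs.

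Cngb1, the B subunit of the rod channel (chr8:95239043-95306585, minus strand), was counted over 2 RefSeq transcripts that share a start site. Rods held 17233, 24366 and 21522, ON-BCs 1390, 2711 and 1584, OFF-BCs 483, 873 and 578, pan-BCs 540, 412 and 502, and blue cones 235, 219 and 309. ON-BC libraries all lay above OFF-BC libraries, by 2.94-fold in the means (1.54 ± 0.24, adjusted p = 0.225 against a 2-fold change, 0.000112 against no change). The call against a 2-fold change was gained with edgeR (adjusted p = 0.035), with the replicate number as a block in limma (1.54 ± 0.11, adjusted p = 0.0068) and without OFF-BC replicate 2 (0.0475). Unlike Cnga1, Cngb1 stood above the rod markers in the bipolar libraries. It reached 6.61%, 12.9% and 7.53% of the rod mean in the ON-BC libraries, where the highest rod marker value was 1.05%, and 2.29%, 4.15% and 2.75% in the OFF-BC libraries, where the highest was 0.171%. Pan-BC libraries stood at 2.57%, 1.96% and 2.38%, where the highest was 1.1%. The pan-BC mean lay below that of ON-BCs (-1.91 ± 0.24, adjusted p = 0.0659 against a 2-fold change, 6.15e-05 against no change). It also lay below that of OFF-BCs, which did not pass against no change (adjusted p = 0.304). Why the whole class lay below both was not tested. Per kilobase of exon, Cnga1 exceeded Cngb1 5.42 ± 0.465-fold in rods (SD, n = 3), and the ratio was 1.82 ± 0.285 in pan-BCs, 0.498 ± 0.115 in ON-BCs and 0.136 ± 0.0249 in OFF-BCs. In blue cones it was 0.809 ± 0.321 (0.97, 1.02 and 0.439). Cngb1 therefore had more RNA per length than Cnga1 in all 6 ON-BC and OFF-BC libraries, the reverse of the order in rods. Counts were per gene and not per transcript, and the part of rod RNA in these ratios was not tested.

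Slc24a1, the rod exchanger (chr9:64922861-64951620, minus strand), had 33358, 51424 and 43728 in rods, 384, 430 and 560 in pan-BCs, 295, 419 and 295 in ON-BCs, 359, 294 and 259 in blue cones and 84.9, 169 and 141 in OFF-BCs. It was 141-fold higher in rods than in blue cones (7.12 ± 0.23, adjusted p = 9.64e-13) and 93.5-fold higher in rods than in pan-BCs (adjusted p = 1.31e-12). ON-BCs and OFF-BCs differed 2.55-fold with no overlap, which did not pass against a 2-fold change (1.38 ± 0.23, adjusted p = 0.59) but did against none (0.000248). Pan-BCs, ON-BCs and blue cones were neighbours that did not pass (adjusted p = 0.361 and 0.604). In ON-BCs it was at 0.785% of the rod mean, inside the rod marker range, and in OFF-BCs at 0.308%, above the highest marker, Nrl, at 0.145%.

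The promoters of these 3 genes are shown because all 3 were more open in rods than in pan-BCs, as their RNA was higher. Each is the stretch of 250 bases before the RefSeq start site, 5′ to 3′ on the gene's strand, GRCm38.p6, with capitals on TAATCC or its complement GGATTA, the core read by the K50 homeodomain factors CRX and OTX2, which was searched on both strands. Cnga1 is chr5:72642753-72643002, Cngb1 is chr8:95306586-95306835 and Slc24a1 is chr9:64951621-64951870.
Cnga1: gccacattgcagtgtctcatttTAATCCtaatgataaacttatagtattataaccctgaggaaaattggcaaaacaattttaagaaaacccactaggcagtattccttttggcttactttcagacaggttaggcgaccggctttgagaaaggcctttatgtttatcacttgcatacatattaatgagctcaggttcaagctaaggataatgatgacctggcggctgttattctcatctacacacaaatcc
Cngb1: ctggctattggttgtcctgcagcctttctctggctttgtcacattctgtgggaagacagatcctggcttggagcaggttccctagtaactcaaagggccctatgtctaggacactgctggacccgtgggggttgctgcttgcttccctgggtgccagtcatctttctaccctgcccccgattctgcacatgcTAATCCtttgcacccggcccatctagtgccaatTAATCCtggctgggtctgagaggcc
Slc24a1: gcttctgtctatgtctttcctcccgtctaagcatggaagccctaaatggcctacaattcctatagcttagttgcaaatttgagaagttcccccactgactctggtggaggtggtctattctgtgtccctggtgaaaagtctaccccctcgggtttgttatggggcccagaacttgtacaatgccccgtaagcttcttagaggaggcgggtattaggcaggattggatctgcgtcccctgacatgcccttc
Cngb1 held 2 matches, whose first bases lay 58 and 25 bases before the start site, Cnga1 held 1 at 228 bases, and Slc24a1 held none in this window. TAATCC or GGATTA was present in 6.25% of the 32851 promoter windows of the same length. The other motifs searched, TAATTA (Q50 homeodomain core), CAGATG or CATCTG (an E-box) and TGCTGA or TCAGCA (part of the NRL site), matched none of the 3, and stood in 4.84%, 14.4% and 16.1% of all windows.

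At the Cnga1 promoter region, 37 bp upstream of the start site, ATAC counts were 218 and 209 in rods, while blue cones held 15.5 and 19.5, green cones 84.5 and 53.5, and no bipolar library more than 13.6. The rod against blue cone difference passed (3.54 ± 0.45, adjusted p = 0.000442), as did that between pan-BCs and rods (-4.18 ± 0.45, adjusted p = 7.3e-06). The 2 green cone libraries, both single-sorted, also carried the promoter of Gnat1, the rod transducin gene, at 222 and 138, against 792 and 748 in rods, and the part of rod chromatin in their Cnga1 value was not tested. ON-BCs (11.9, 8.78) and OFF-BCs (5.39, 13.6) overlapped at this promoter, although their Cnga1 RNA differed.

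The Slc24a1 start site region gave 323 and 295 in rods against 58.3 and 44.8 in blue cones (2.57 ± 0.44, adjusted p = 0.0144), and a second one 641 bp upstream gave 219 and 191 against 10.4 and 28.9 (3.48 ± 0.47, adjusted p = 0.00084). The region with the highest mean of all 75, in a Slc24a1 intron 17.0 kb downstream, was open everywhere, from 128 in a pan-BC library to 632 in a rod library, and was lower in pan-BCs than in rods (-2.12 ± 0.17, adjusted p = 1.69e-05). The Cngb1 promoter was open in all 6 populations, at 419 and 386 in rods and from 55.2 to 168 elsewhere, and also passed between pan-BCs and rods (-2.54 ± 0.32, adjusted p = 0.000251). Between ON-BCs (85.1, 160) and OFF-BCs (55.2, 83.7) it did not pass (adjusted p = 1).

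**Figure D3:**
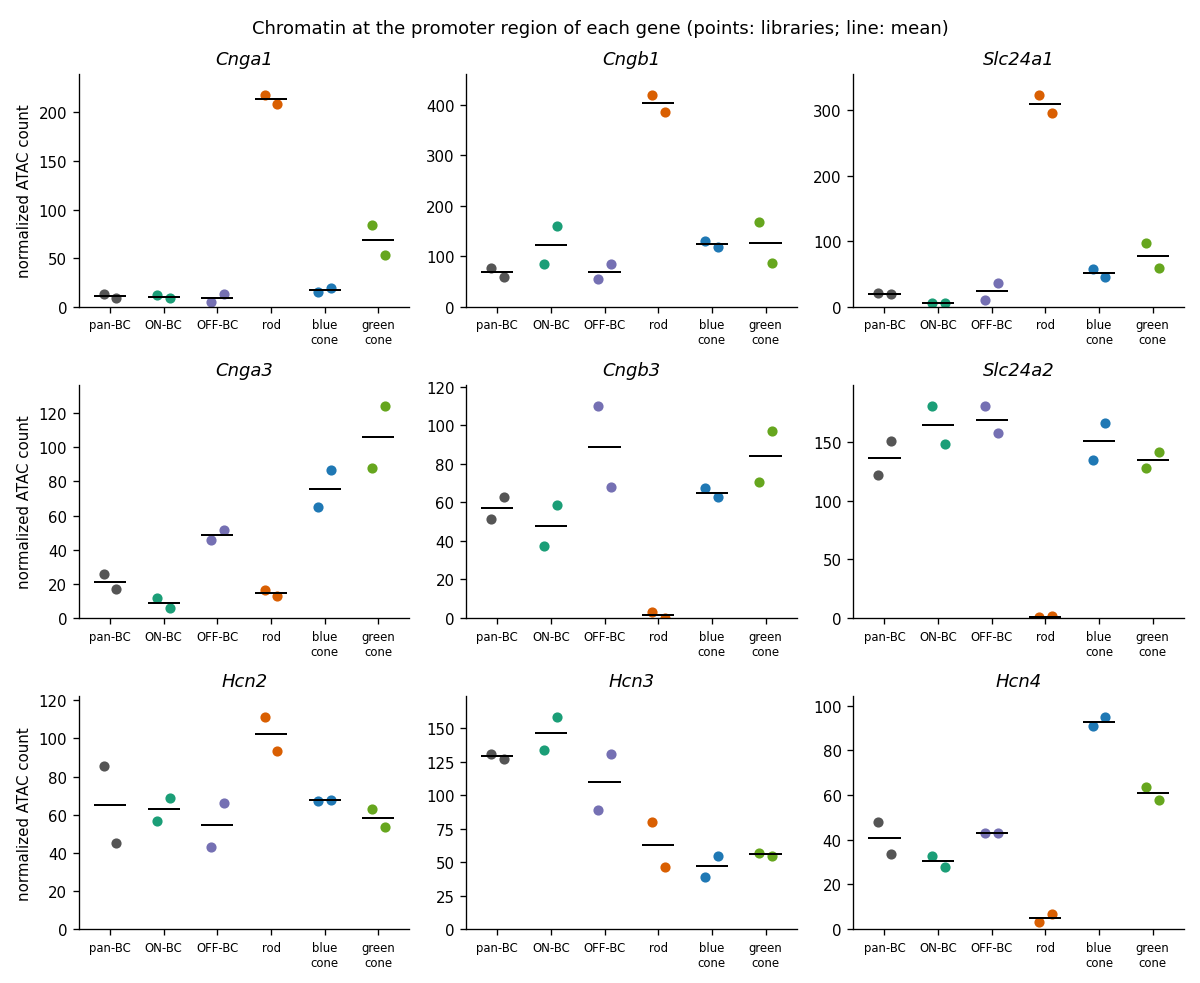
Normalized ATAC count (linear axes from 0, 1 scale per panel) at the promoter region with the highest mean for each gene, in 2 libraries of each of 6 populations; lines are means. The Slc24a2 and Cngb3 promoters are near 0 in rods and open in every other population, while the Hcn2 and Hcn3 promoters are open in all 6.

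Cnga3, the A subunit of the cone channel (chr1:37218278-37263384, plus strand), had 4631, 4943 and 4963 in blue cones. Pan-BCs held 61.7, 51.5 and 79.5, rods 16.5, 49.2 and 36.7, ON-BCs 7.22, 1.96 and 1.03, and OFF-BCs 1.12, 7.21 and 64.0. OFF-BC replicate 3, the library with the most cone RNA, held nearly all of the OFF-BC reads of this gene. Blue cones were 142-fold above rods (rod minus blue cone -7.24 ± 0.84, adjusted p = 1.08e-05) and 75.5-fold above pan-BCs (adjusted p = 3.21e-05). None of the other neighbours in its order passed (adjusted p = 0.28, 0.085 and 0.206). Populations further apart in the order did: ON-BCs lay below rods (-3.13 ± 0.84, adjusted p = 0.0271 against a 2-fold change), and pan-BCs lay above ON-BCs and OFF-BCs in the test against no change (adjusted p = 0.00537 and 0.0346).

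Cngb3, the B subunit of the cone channel (chr4:19280850-19510623, plus strand), had 25343, 25444 and 25957 in blue cones, 2059, 1765 and 2154 in OFF-BCs, 1182, 952 and 1244 in pan-BCs, 567, 552 and 605 in ON-BCs and 90.2, 126 and 150 in rods. No 2 populations overlapped, and every pair of neighbours in this order passed the test against no change (adjusted p = 0.000745 or lower). OFF-BCs exceeded ON-BCs 3.47-fold (ON minus OFF -1.79 ± 0.15, adjusted p = 0.00106), a call kept in all 16 alternatives. It was 9.22-fold higher in pan-BCs than in rods (3.22 ± 0.15, adjusted p = 5.9e-10). OFF-BC libraries 1 to 3 held Cngb3 at 8.05%, 6.9% and 8.42% of the blue cone mean, while Opn1sw stood at 0.366%, 0.353% and 4.57%, Arr3, the cone arrestin, at 0.922%, 1.52% and 9.17%, and Pde6c at 0.108%, 0.183% and 1.22%. Of the 6 cone markers only Gnat2, at 10.1%, 8.46% and 12.9%, was as high as Cngb3 in OFF-BC replicates 1 and 2. By the carry-over rule Cngb3 would stay among the genes higher in OFF-BCs, since blue cones exceeded OFF-BCs 12.8-fold. Against rods the rule drops a pan-BC gene that is over 16-fold higher in blue cones than in rods and at least 4-fold higher than in pan-BCs, which for Cngb3 were 209-fold and 22.7-fold. The part of cone RNA in its levels was not tested.

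The A and B subunits of the cone channel parted in bipolar cells. Per kilobase, Cngb3 exceeded Cnga3 4.30 ± 0.138-fold in blue cones, 14.5 ± 1.52-fold in pan-BCs and 63.8-, 229- and 480-fold in the ON-BC libraries. In OFF-BCs the excess was 1499-, 199- and 27.4-fold, the last in the library with the most cone RNA. The sizes of these ON-BC and OFF-BC ratios are uncertain, since most rest on a few Cnga3 reads. There were 7, 2 and 1 in the ON-BC libraries and 1, 6 and 58 in the OFF-BC libraries. Of the summed per-kilobase level of the 6 CNG genes, Cngb3 made up 71.3% to 83.7% in the OFF-BC libraries, 52.0% ± 1.74 in pan-BCs and 23.3% ± 5.23 in ON-BCs, where Cngb1 led with 51.2% ± 7.53. In rods Cnga1 made up 84.2% ± 1.18, and in blue cones Cngb3 made up 80.2% ± 0.458. The whole family summed to 459 to 542 per kilobase in the 3 bipolar populations, 20157 in rods and 6775 in blue cones.

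**Figure D4:**
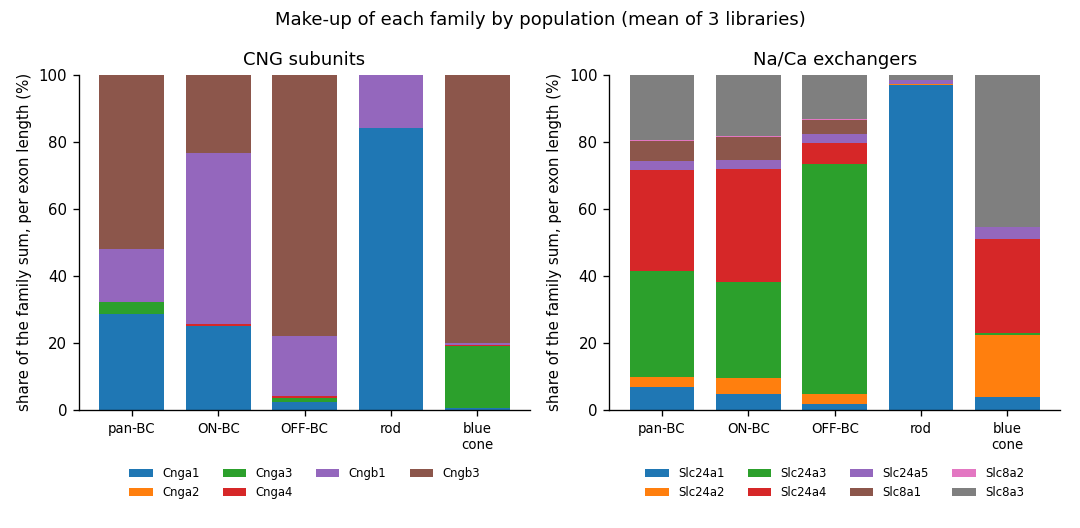
Stacked bars give each gene's mean share (percent, 3 libraries) of the CNG or exchanger family's summed normalized count per kilobase of exon in 5 populations. B subunits fill most of the CNG bar in every population but rods, and Slc24a1 takes 97.1% of the exchanger bar in rods.

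Slc24a2, an exchanger of cones (chr4:86983124-87230540, minus strand), had 3637, 2984 and 2704 in blue cones, 744, 626 and 639 in ON-BCs, 401, 405 and 646 in OFF-BCs, 404, 432 and 362 in pan-BCs and 22.3, 24.6 and 22.7 in rods. Rods were the lowest by a wide margin. It was 134-fold higher in blue cones than in rods (rod minus blue cone -7.0 ± 0.17, adjusted p = 2.69e-14) and 17.2-fold higher in pan-BCs than in rods (4.05 ± 0.17, adjusted p = 5.22e-11), and 7.78-fold lower in pan-BCs than in blue cones (adjusted p = 3.34e-08). In ON-BCs it stood at 23.9%, 20.1% and 20.6% of the blue cone mean, where the highest cone marker value was 2.22%. By the carry-over rule it would still be dropped from the genes higher in pan-BCs than in rods (134-fold and 7.78-fold).

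The promoters of Slc24a2 and Cngb3 were near 0 in rods and open in all other populations, and the Hcn4 promoter was also lowest in rods. The Slc24a2 promoter region, in an exon 89 bp from the start site, gave 0.779 and 1.36 in rods, between 122 and 181 in the 6 bipolar libraries and between 128 and 167 in the 4 cone libraries. It passed between pan-BCs and rods (6.06 ± 0.27, adjusted p = 2.07e-10) and between rods and blue cones (-6.20 ± 0.27, adjusted p = 4.12e-10). Pan-BCs and blue cones differed there by -0.14 ± 0.27 although their RNA differed 7.78-fold. The Cngb3 promoter gave 3.12 and 0 in rods and 37.3 to 110 elsewhere (pan-BC minus rod 4.83 ± 0.50, adjusted p = 2.96e-06). Of 18 Slc24a2 regions 14 were higher in pan-BCs than in rods and none lower, and of 10 Cngb3 regions, 8 of them tested, 7 were higher and none lower. Among all regions tested, 40.3% were higher in pan-BCs and 11.2% lower. Not every region set rods apart from cones. The Cngb3 region at 62.8 kb and the Slc24a2 region 202.7 kb upstream gave 0 in rods and 2.82 or less in the cone libraries.

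Over all 75 regions, 72 of which were tested, 32 were higher in pan-BCs than in rods and 12 lower (all regions, 40.3% and 11.2%), the lower ones lying at Slc24a1 (7), Cnga1 (4) and Cngb1 (1). Against blue cones 11 were higher in pan-BCs and 7 lower (28.8% and 7.13%), and between rods and blue cones 8 were higher in rods and 27 lower (1.46% and 8.56%). The 8 were at Slc24a1 (5) and Cnga1 (3), and the 27 at Slc24a2 (12), Cnga3 (6), Cngb3 (5) and Hcn4 (4). No region was called between blue and green cones, where 0.0277% of all regions were higher and 0.0627% lower by limma, 5346 regions had an unadjusted p under 0.05, and edgeR called 1 of the 75. Between ON-BCs and OFF-BCs 2 were higher in ON-BCs (4.58% of all regions) and 5 lower (2.8%), 7 in all. A fit of the ON-BC and OFF-BC libraries alone, with the replicate number as a block, called 4.

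Those 7 regions fell into 2 kinds. The 2 higher in ON-BCs were open in ON-BCs and pan-BCs and at 8.08 or less in OFF-BCs and photoreceptors: one in a Cngb3 intron 62.8 kb from the start site (41.8 and 77.6 in ON-BCs, 2.69 and 3.89 in OFF-BCs, 3.77 ± 0.77, adjusted p = 0.021) and one 202.7 kb upstream of Slc24a2 (65.7 and 65.9 against 8.08 and 1.95, 3.69 ± 0.71, adjusted p = 0.0149). The 5 higher in OFF-BCs were each more open in all 4 cone libraries than in either OFF-BC library. A Cnga3 intron region 20.3 kb from the start site gave 102 and 111 in OFF-BCs, 5.97 and 20.5 in ON-BCs, and 153 to 205 in cones (-3.14 ± 0.39, adjusted p = 0.00135). A Slc24a2 intron region at 6.2 kb gave 125 and 79.8 in OFF-BCs, 5.97 and 8.78 in ON-BCs, 0 and 2.71 in rods and 189 to 249 in cones (-3.61 ± 0.47, adjusted p = 0.00122). Both kept their call in all 12 alternatives, while the other 5 lost it in 3 to 6 of them, among them the fits without OFF-BC replicate 1 (4 of the 5) or without OFF-BC replicate 2 (4 of the 5). The remaining 3 were the Cnga3 promoter regions 430 and 39 bp upstream (adjusted p = 0.0244 and 0.014) and a region 1.0 kb upstream of Cnga1 (60.6 and 23.4 in OFF-BCs, 5.97 and 5.86 in ON-BCs, adjusted p = 0.0103). At the last of these, chromatin was higher in OFF-BCs while Cnga1 RNA was higher in ON-BCs. Cnga3 RNA, likewise, stayed at 1.12 and 7.21 in 2 of the 3 OFF-BC libraries. In the same OFF-BC ATAC libraries the promoters of the 6 cone markers stood at 16.4% to 47.0% of their blue cone mean, with Opn1sw the highest, and the Cnga3 and Slc24a2 intron regions at 58.5% and 44.7%. The marker promoters had a median of 24.6% in OFF-BCs, 10.6% in pan-BCs and 3.98% in ON-BCs. They varied widely, since the Pde6c promoter stood at 42.8%, 85.4% and 140% in the same order. The part of cone chromatin in these 5 differences was not tested. The Cnga1 region gave 89.4 to 124 in cones and 294 and 341 in rods. In OFF-BCs it stood at 13.2% of its rod mean, where the rod marker promoters stood at 0.807% to 2.62%.

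**Figure D5:**
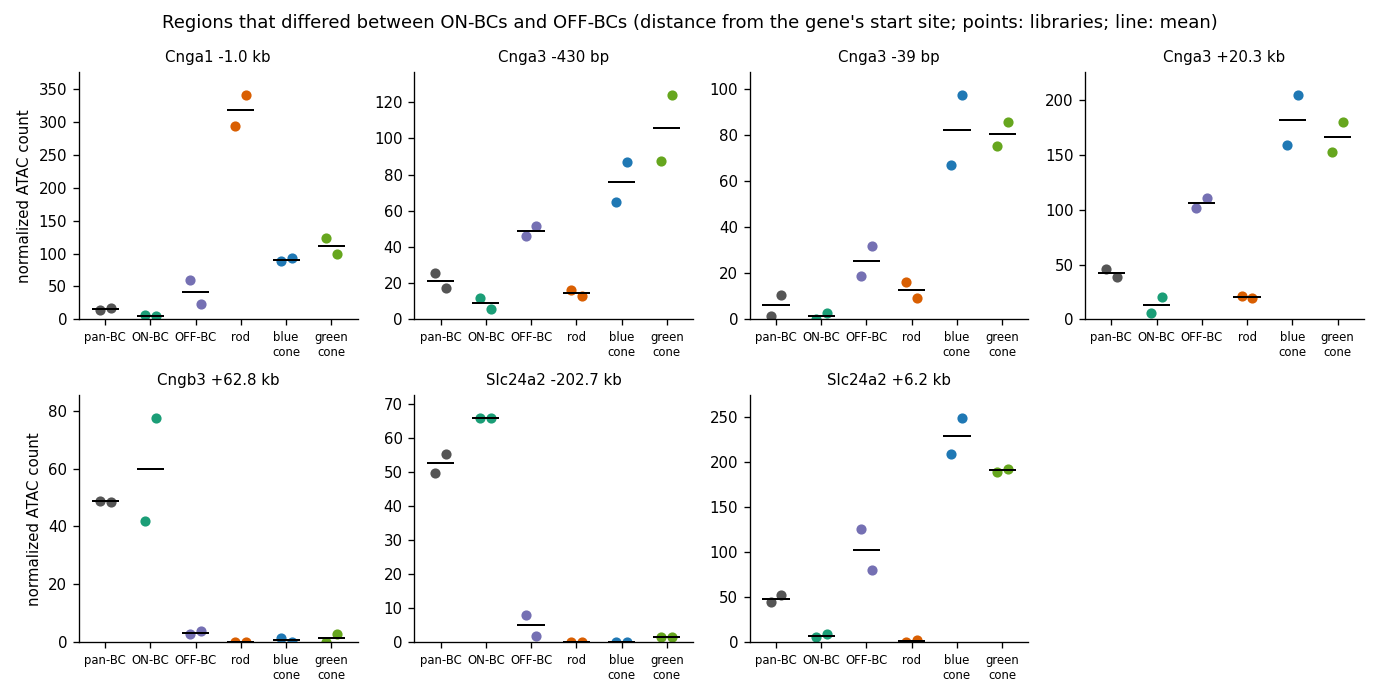
Normalized ATAC count (linear axes from 0) in the 7 regions that passed between ON-BCs and OFF-BCs, titled by gene and distance from the start site, for 2 libraries of each of 6 populations with means as lines. The 5 regions higher in OFF-BCs are also open in blue and green cones, and the Cngb3 +62.8 kb and Slc24a2 -202.7 kb regions are open in pan-BCs and ON-BCs alone.

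The first 2 sequences below are the regions that kept their call between OFF-BCs and ON-BCs in all alternatives, and the third is the Cngb3 region of opposite sign. They are given on the plus strand of GRCm38, with capitals on any match to the 4 motifs named above, searched on both strands. Cnga3 +20.3 kb is chr1:37239375-37239575, Slc24a2 +6.2 kb is chr4:87221639-87221839 and Cngb3 +62.8 kb is chr4:19343587-19343787.
Cnga3 +20.3 kb: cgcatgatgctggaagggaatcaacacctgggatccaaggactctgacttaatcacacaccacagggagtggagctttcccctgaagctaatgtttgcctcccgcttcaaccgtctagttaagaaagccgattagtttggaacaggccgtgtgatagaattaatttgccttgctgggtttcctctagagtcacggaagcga
Slc24a2 +6.2 kb: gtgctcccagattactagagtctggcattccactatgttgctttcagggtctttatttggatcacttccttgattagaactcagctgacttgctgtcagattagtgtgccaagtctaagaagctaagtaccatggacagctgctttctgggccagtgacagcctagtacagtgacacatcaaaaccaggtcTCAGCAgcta
Cngb3 +62.8 kb: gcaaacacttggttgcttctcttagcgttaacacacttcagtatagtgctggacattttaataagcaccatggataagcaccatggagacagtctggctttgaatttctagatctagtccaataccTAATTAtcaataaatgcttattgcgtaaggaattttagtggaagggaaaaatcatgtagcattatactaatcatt
The Cnga3 region held no match, the Slc24a2 region held 1 TCAGCA and the Cngb3 region 1 TAATTA. Among all 110715 regions of 201 bases, 17.9% held TGCTGA or TCAGCA, 5.22% TAATTA, 21.8% TAATCC or GGATTA and 22.4% CAGATG or CATCTG. Of the 75 regions, 8.0% held TGCTGA or TCAGCA, 5.33% TAATTA, 25.3% TAATCC or GGATTA and 13.3% CAGATG or CATCTG.

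Hcn3, an HCN channel little affected by cAMP (chr3:89146775-89160157, minus strand), was the most abundant of the 3 Hcn genes per kilobase in each bipolar population. OFF-BCs held 3505, 2814 and 3575 normalized counts, pan-BCs 1486, 1459 and 1533, ON-BCs 921, 934 and 817, blue cones 23.3, 21.3 and 27.4 and rods 5.82, 4.10 and 18.4. No population overlapped another, though pan-BCs and ON-BCs did not pass the neighbour test (adjusted p = 0.235). It was 158-fold higher in pan-BCs than in rods (7.41 ± 0.32, adjusted p = 1.24e-11) and 62.2-fold higher than in blue cones (5.91 ± 0.32, adjusted p = 1.01e-09). OFF-BCs exceeded ON-BCs 3.70-fold (ON minus OFF -1.88 ± 0.32), which passed against no change (adjusted p = 0.000293) and missed against a 2-fold change (0.0992). The call against a 2-fold change was made in 5 of 16 alternatives: only ON-BCs and OFF-BCs in the fit (adjusted p = 0.00023), the replicate number as a block (0.000539), a pseudocount of 10 (0.00331), edgeR (7.49e-05) and DESeq2 (4.94e-09). Rods and blue cones passed against no change (adjusted p = 0.000776), and against a 2-fold change they did not (0.326) until rod replicate 3 was left out (0.00011).

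The single region assigned to Hcn3, the promoter 53 bp from the start site, gave 131 and 127 in pan-BCs, 80.2 and 46.1 in rods, with blue cones lowest at 38.9 and 54.9. Pan-BCs thus lay above both photoreceptor populations, as in the RNA, but the differences, 1.07 between pan-BCs and rods and 1.46 between pan-BCs and blue cones, did not pass (adjusted p = 0.567 and 0.15). ON-BCs (134, 158) lay above OFF-BCs (88.9, 131), the reverse of the RNA, and this did not pass either (adjusted p = 1).

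Hcn4, the slowest-gating member of the family (chr9:58822949-58863175, plus strand), was rarer. OFF-BCs held 105, 113 and 116, pan-BCs 45.7, 74.7 and 78.3, ON-BCs 33.0, 19.6 and 35.9, blue cones 0, 3.79 and 3.70, and rods had 0 reads in all 3 libraries. Against a floor of 3 reads per library, it was at least 21.5-fold higher in pan-BCs than in rods, and it passed against both rods (adjusted p = 1.07e-07) and blue cones (4.53 ± 0.51, adjusted p = 1.1e-05). ON-BCs and OFF-BCs did not overlap and differed by -1.92 ± 0.51, which passed only against no change (adjusted p = 0.00951; 0.461 against a 2-fold change). Rods and blue cones, both at or near 0, passed against no change (adjusted p = 0.0191), and against a 2-fold change (0.691) only when blue cone replicate 1 was left out. Its promoter region gave 3.12 and 6.78 in rods, 27.8 to 48.0 in bipolar libraries and 90.7 and 94.7 in blue cones, so it was higher in pan-BCs than in rods (2.86 ± 0.37, adjusted p = 0.000206) and widest open in a population with almost no Hcn4 RNA.

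Hcn2 (chr10:79716634-79736108, plus strand), a channel with strong cAMP dependence, held 29.8, 43.4 and 36.7 in pan-BCs, 36.1, 29.4 and 47.2 in ON-BCs, 25.7, 18.0 and 48.6 in OFF-BCs, 6.77, 7.59 and 5.18 in blue cones and 2.91, 7.17 and 4.32 in rods. The 3 bipolar populations overlapped and their neighbours did not pass (adjusted p = 0.991 and 0.609). Pan-BCs exceeded rods 7.63-fold (2.75 ± 0.41, adjusted p = 0.000868) and blue cones 5.62-fold (2.32 ± 0.41, adjusted p = 0.00843), the latter lost with a pseudocount of 10 (adjusted p = 0.096). At its promoter rods were, if anything, the highest (111 and 93.5 against 85.6 and 45.0 in pan-BCs), with no difference called in any comparison. Peak lists of 14 ATAC libraries, the 12 above and 2 of double-sorted green cones, held a promoter peak of Hcn2 in all 14, of Cngb1 in 13, of Cngb3 and Hcn4 in 12 each, of Slc24a2 in 11, of Hcn3 and Slc24a1 in 10, of Cnga3 in 9 and of Cnga1 in 4. Neither rod library had one at Cngb3, Hcn4 or Slc24a2, and no pan-BC or ON-BC library had one at Cnga3. The 4 libraries with a Cnga1 promoter peak were the 2 of rods and the 2 of single-sorted green cones, and the 2 of double-sorted green cones had none. The double-sorted libraries also had none at Hcn3 and only 1 of the 2 had one at Cngb1, where both single-sorted libraries had them. At Slc24a2 both double-sorted libraries had a peak, against 1 of the 2 single-sorted. The effect of the second sort was not tested.

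The other genes of these families, a list of 10 with 9 tested, gave 1 called between ON-BCs and OFF-BCs. It was the exchanger Slc24a4, higher in ON-BCs (means 1425 and 279, 2.34 ± 0.12, adjusted p = 6.32e-07), as were 2.95% of all genes. Between pan-BCs and rods 4 were higher in pan-BCs (27.8% of all genes) and 2 lower (15.8%). The 4 were Slc24a3 (1655 against 6.60), Slc24a4 (1229 against 17.7) and the plasma membrane sodium/calcium exchangers Slc8a1 (1418 against 6.37) and Slc8a2 (21.2 against 0.342). The 2 lower were Cnga4 and Pex5l, which encodes the HCN-binding protein TRIP8b (45.0 against 1983, -5.43 ± 0.42, adjusted p = 4.48e-08). Against blue cones 2 were higher in pan-BCs (Slc24a3, Slc8a1) and 3 lower (Cnga4, Pex5l, Slc8a3), where 22.7% and 13.7% of all genes were. Between rods and blue cones Pex5l was higher in rods and 3 were lower (Slc24a3, Slc24a4, Slc8a3), where 4.63% and 11.3% of all genes were. Slc24a1 made up 97.1% ± 0.355 of the exchanger sum in rods, Slc8a3 45.4% ± 3.31 in blue cones, ahead of Slc24a4 (28.3%) and Slc24a2 (18.6%), and Slc24a3 68.7% ± 2.15 in OFF-BCs. ON-BCs were split between Slc24a4 (33.8%) and Slc24a3 (28.6%). Slc24a2 made up no more than 5.29% in any bipolar library.

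Of 11 genes that regulate cGMP in photoreceptors, all tested, 8 were lower in pan-BCs than in rods (15.8% of all genes) and 1 higher (27.8%). The higher one was the cone transducin gene Gnat2, which took the same direction as Cngb3. Against blue cones 9 were lower in pan-BCs (13.7% of all genes) and 2 higher, Gnat1 and Gucy2f (22.7%). Between rods and blue cones 5 were higher in rods (4.63% of all genes) and 3 lower (11.3%). Between ON-BCs and OFF-BCs 3 were higher in ON-BCs (Gnat1, Pde6a, Pde6b) and 4 lower (Gnat2, Pde6c, Pde6h, Gucy2f), where 2.95% and 3.6% of all genes were. OFF-BC libraries 1 to 3 held Pde6c at 71.5, 121 and 810 and Pde6h at 313, 692 and 4447, highest in the library with the most cone RNA. Pde6c kept its call in 12 of 16 alternatives and Pde6h in all 16. Gnat1 stood at 4315 in ON-BCs and 375 in OFF-BCs, a difference (3.54 ± 0.20) close in size to that of Cnga1. Gnat2 was 3290 in ON-BCs and 17124 in OFF-BCs (-2.37 ± 0.15, adjusted p = 4.87e-06). Gucy2f went the other way from Gnat1, with means of 32.1 in ON-BCs and 236.9 in OFF-BCs, although it was 207-fold higher in rods than in blue cones.

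The genes whose log2 level ran most like each of the 9 over the 15 libraries, given as a description, differed between the sets. For Cnga1 they were Gnat1 (r = 0.996) and Mef2c (0.995), for Cngb1 Spry2 (0.968) and Aggf1 (0.955), for Slc24a1 Gpsm2 and A930006I01Rik (both 0.988), for Cnga3 Agpat9 (0.976) and Gulo (0.971), and for Cngb3 Nrcam (0.995) and Gnat2 (0.994). For Slc24a2 they were Elovl6 (0.991) and Pygm (0.987), for Hcn2 Chmp4b (0.979) and Capns1 (0.978), for Hcn3 Rnf182 (0.999) and the glycine receptor gene Glra1 (0.998), and for Hcn4 Stac (0.993) and Cdc42ep5 (0.99). Rnf182 had means of 5629 in OFF-BCs, 1300 in ON-BCs and 5.26 in rods, and Glra1 of 2291, 546 and 1.76, the same order as Hcn3. The 15 libraries fall into 5 populations, so these values rest on few independent points.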

How the data were processed

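RNA-seq of 5 sorted populations and ATAC-seq of 6 were used. The authors aligned RNA reads with STAR 2.7.0d and counted them per gene with HTSeq, aligned ATAC reads with Bowtie2, called peaks per library with MACS2 2.1.1 and counted reads in regions of 201 bp with featureCounts, all on GRCm38 (mm10) with RefSeq genes. The deposited signal tables hold those read counts divided by 1 size factor per library; dividing by the smallest step gave back whole reads (tolerance 0.01). The RNA kit does not mark strand, so antisense reads cannot be told apart. The deposited peak lists give a score, a fold enrichment ratio and −log10 p-values and q-values, of which only positions were used here. No per-sample column was left unused, and 2 RNA rows share a repeated name.

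Genes and regions were filtered with filterByExpr. The main test was limma 3.58.1 (treat, trend) in R 4.3.3 on log2(value + 1) against a log2 fold change of 1, all libraries in 1 fit, Benjamini-Hochberg adjustment, threshold 0.05. edgeR 4.0.16 and DESeq2 1.42.0 on the recovered reads, other pseudocounts, filters and scalings, a replicate block and leaving out each library were the alternatives. The replicate block was fitted to the compared populations alone. Fits were tested on simulated data. Regions went to the nearest RefSeq start site, promoters being 1000 bp upstream to 100 bp downstream. Levels between genes were compared per kilobase of exon. Sequences came from RefSeq tables and the GRCm38.p6 genome; 7 of the 9 genes matched the promoter table, all but Cngb3 and Hcn3. The named genes are the 9, the related and cGMP lists, and the 2 genes most like each by Pearson r. A pair of listed genes is not reported here. Members and lists were chosen with earlier results of these data known. Labels do not say that all replicates are separate mice, so p-values measure the spread between these libraries. RNA depth was 12329548 to 26266746 reads and ATAC depth 4176776 to 12345845.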

Additional observations from a re-analysis of the deposited data

How the results depend on the processing

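Of the RNA values of single genes under alternatives, 578 kept their direction and side of the threshold, 19 gained a call and 1 lost it, and none reversed. Between ON-BCs and OFF-BCs the 2 called genes became 7 in the test against no change, 4 with edgeR and 4 with the replicate block, and 2 to 3 when libraries were left out in turn. The 7 called regions became 15 against no change, 4 with DESeq2, 4 with a pseudocount of 10, 4 with the replicate block, and 3 to 5 without 1 library (4 without OFF-BC replicate 1, 3 without OFF-BC replicate 2). Between pan-BCs and blue cones the 18 regions became 38 against no change and 30 with edgeR, and 11 to 14 without 1 library, the 11 without pan-BC replicate 2 or blue cone replicate 2. Between rods and blue cones the 35 regions became 20 with a pseudocount of 10 and 23 to 26 without 1 library, the 23 without blue cone replicate 1. Between blue and green cones the 0 regions became 2 against no change and 1 with edgeR, and stayed at 0 without any 1 library. Leaving out libraries gave 7 to 7 genes between pan-BCs and blue cones, 8 to 8 between pan-BCs and rods and 6 to 7 between rods and blue cones, and 39 to 42 regions between pan-BCs and rods (44 with all). The cause of these changes was not tested. Same-numbered ON-BC and OFF-BC RNA libraries deviated with r of -0.076, 0.222 and -0.065, and differently numbered ones with r from -0.147 to 0.212. The same-numbered libraries came from mice of equal age (43, 48 and 42 days). Whether a number marks shared mice was not given in the sources used here. The replicate block was fitted to the compared populations alone. That fit gained the calls of Cngb1 and Hcn3 and changed no other RNA call among the 9 genes. A fit of ON-BCs and OFF-BCs alone, without the block, also made the Hcn3 call. Scaling RNA by total count moved the median of all genes by 0.35 between pan-BCs and rods and 0.28 between pan-BCs and blue cones, and TMM scaling of ATAC moved the median of all regions by -0.22 between ON-BCs and OFF-BCs, -0.20 between pan-BCs and rods and -0.29 between pan-BCs and blue cones. A test against a 2-fold change makes no call for differences near 2-fold.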
